A study of Mus musculus with 12 samples.

Results

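The genotype effect pooled over both treatments is the difference between 6 Shank2-mutant mice (KO) and 6 wild-type mice (WT), irrespective of whether they had received memantine or vehicle, and it uses all 12 mice of the series. All mice were C57BL/6N males, not pooled, and each gave 1 library of poly-A RNA. The KO mice were homozygous for a deletion of exons 6 and 7 of Shank2 in every cell, and the WT mice carried no deletion. Within each genotype, 3 mice had received memantine, an open-channel blocker of NMDA receptors (KO-Mem and WT-Mem; 20 mg/kg by mouth, 2 doses a day, P7 to P21), and 3 had received its vehicle, 0.1% saccharin (KO-Veh and WT-Veh). RNA was taken at P25, so all 4 groups had been dosed by mouth for the same days, and treatment entered the fit as a covariate. The labels give the tissue as whole brain, whereas the methods describe forebrain after removal of the cerebellum and the brain stem beneath it. Any flanking chromosome 7 alleles inherited with the deletion and the deletion itself cannot be told apart. No label says whether mice were littermates, and p-values measure the spread between these mice.

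Shank2 is a scaffold of the excitatory postsynaptic density, where it links SAPAP/PSD-95 complexes that hold NMDA receptors to Homer and the actin cytoskeleton. Neurons, myelinating oligodendrocytes, astrocytes and vessels all contribute RNA to a piece of brain. At weaning age myelin is still being laid down, a process that draws heavily on cholesterol synthesis and on folding of membrane proteins in the endoplasmic reticulum (ER).

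A value is a normalized read count, that is, an estimated read count per gene scaled by the authors so that mice can be compared. Differences are fitted on log2(value + 1) and are given as KO minus WT with the standard error (SE) of the fit, and a gene was called when its Benjamini-Hochberg adjusted p from limma was under 0.05 over all genes tested. Of 19312 genes in the table, 17655 had a mean of at least 10 and were tested.

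Shank2 itself (chromosome 7, 144001928 to 144424494, GRCm38) was lowest in every KO mouse. Normalized read counts of the gene were 8248, 7427 and 8325 under vehicle and 7936, 8548 and 7156 under memantine in the WT mice. In the KO mice the values were 3053, 3006 and 2723 under vehicle and 2817, 2706 and 3178 under memantine. The genotypes did not overlap, and the libraries follow their genotype labels. Shank2 cannot check the treatment labels. The log2 difference was -1.45 ± 0.055 (SE, n = 6 and 6; adjusted p = 9.19e-10), so that the gene fell by 63.3%, and an exact two-sided permutation of genotype within treatment gave p = 0.005, the smallest that the 400 arrangements allow. The values are sums over the transcripts of the gene and do not show the deleted exons by themselves.

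Over all genes the genotype moved many transcripts by small amounts. Of the 17655 genes tested, 1907 (10.8%) were called, 863 higher (4.89%) and 1044 lower (5.91%) in KO mice. Centring each mouse on its median turned this balance to 1046 higher and 913 lower. The median called gene differed by 0.32 log2 units in either direction, 74.6% of the called genes differed by less than 0.5, and 102 differed by 2-fold or more (59 higher and 43 lower). All 6 KO values lay outside the range of the 6 WT values for 613 called genes (32.1%), against 717 genes (4.06%) over all genes tested, 1.86% with all KO mice higher and 2.2% with all KO mice lower. A call on the same mice favors the larger share among called genes by construction. The number of calls rests on single mice: it was 704 without KO-Veh replicate 3, 801 without KO-Mem replicate 1, 807 without KO-Mem replicate 2, 967, 1181 and 1072 without WT-Mem replicate 1, 2 and 3, and 1091 without WT-Veh replicate 2. Without KO-Mem replicates 1 and 2 together, the mice farthest from the WT mice on the first principal component, 102 genes were called (29 higher and 73 lower), of which 100 were among the 1907. None of the 145 called genes that are named by rule changed sign in the 26 alternatives that kept both treatments, and 43 of them stayed called in every one of these. The constant sign is favored by construction, since these genes were chosen by their call on the same mice.

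**Figure D1:**
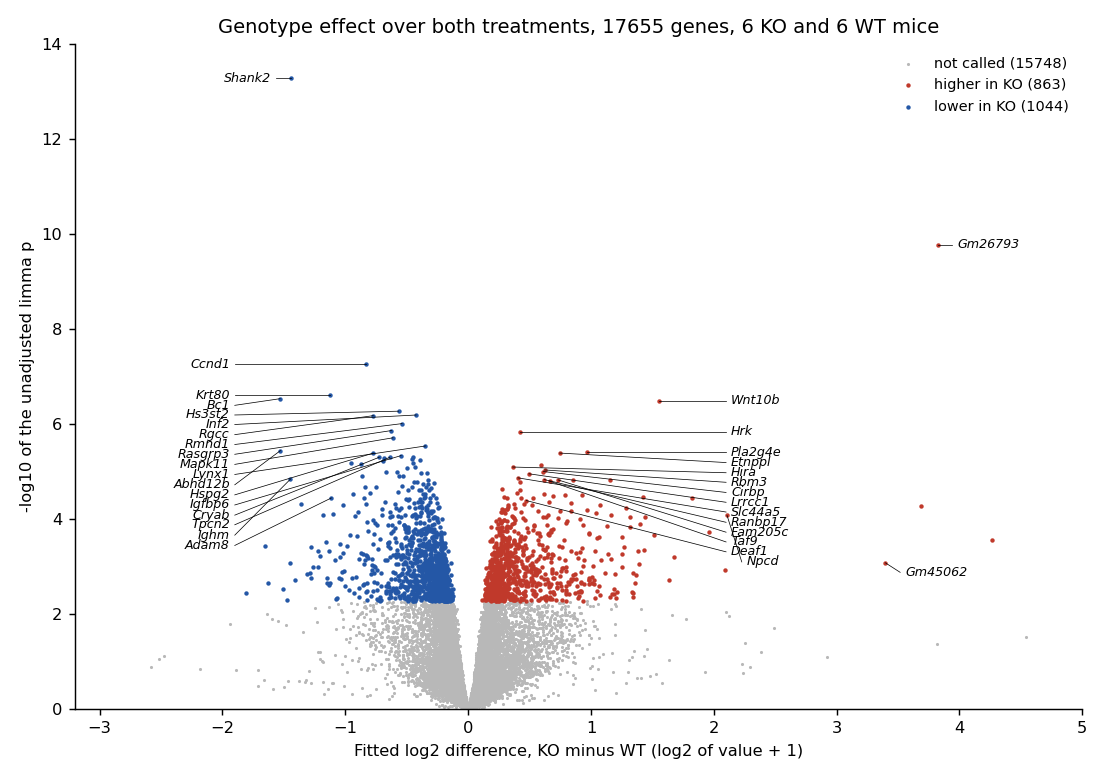
Fitted log2 difference (KO minus WT, x axis) against -log10 of the unadjusted limma p (y axis) for 17655 genes in 6 KO and 6 WT mice, with 863 genes called higher (red), 1044 called lower (blue) and the rest in grey. Shank2 stands alone at the top left, Gm26793 and Wnt10b lead the higher genes, and most called genes lie within 0.5 of 0. 2 genes lie outside the x axis.

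Some library facts bear on these counts. On the first principal component, which held 26% of the variance, all KO mice lay above all WT mice, with KO-Veh replicate 2 nearest to the WT mice and KO-Mem replicate 1 farthest. KO-Veh replicate 3 held RNA of cerebellar granule cells, with values of 253.9 for Gabra6 and 744.8 for Cbln3, where the other 11 mice reached at most 12.88 and 64.99 (WT-Veh replicate 3). No cerebellar marker was called (0 of 15), and the summed marker level was 6178 to 6845 in WT mice and 6159 to 10530 in KO mice. Slc17a7, a vesicular glutamate transporter of cortical and other neurons, stood at 34250 to 43630 in all mice. Without KO-Veh and WT-Veh replicates 3, the mice with the highest cerebellar markers, 428 genes were called, 408 of them among the 1907. The spacing of low values gave 11 mice an estimated depth between 0.89 and 1.148 of their mean, and gave no estimate for WT-Veh replicate 3.

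Outside the neighbourhood of Shank2 and without predicted genes, the gene higher in KO mice with the smallest p was Wnt10b, a secreted Wnt ligand. Its normalized read count was 27.0 to 61.8 (median 39.5) in the 6 WT mice and 86.5 to 194 (median 116) in the 6 KO mice, a log2 difference of 1.55 ± 0.18 (adjusted p = 9.54e-04). The KO mice did not overlap with the WT mice, and the 3 KO-Mem mice, at 194.1, 142.3 and 155.1, all lay above the 3 KO-Veh mice at 86.55, 90.24 and 88.23. Krt80, a type II keratin, had the smallest p among the genes lower in KO mice chosen in the same way, and went from 113 to 133 (median 123) in WT mice to 47.1 to 80.9 (median 52.8) in KO mice, a log2 difference of -1.13 ± 0.13 (adjusted p = 9.54e-04). Among the other 11 named risers, the largest were Pla2g4e, a calcium-dependent phospholipase (0.97 ± 0.14), Etnppl, the astrocytic ethanolamine phosphate lyase (0.75 ± 0.11), Fam205c (0.73 ± 0.12) and Taf9, a subunit of the basal transcription factor TFIID (0.66 ± 0.11). Hrk, a BH3-only activator of apoptosis (0.42 ± 0.055), Hira, a chaperone of histone H3.3 (0.36 ± 0.055), Lrrcc1 (0.50 ± 0.077), Slc44a5 (0.41 ± 0.064) and Ranbp17 (0.62 ± 0.099) rose by less. Except for Taf9 and Ranbp17, whose ranges overlapped, these genes were higher in every KO mouse than in every WT mouse.

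The remaining members of this top set of risers were Rbm3 and Cirbp, the paired cold-inducible RNA-binding proteins. Rbm3 stood at 2352, 1626 and 2279 under vehicle and 2194, 2291 and 2825 under memantine in the WT mice. In the KO mice the values were 2933, 2959 and 3621 under vehicle and 4176, 3808 and 3312 under memantine. Cirbp stood at 1427, 1193 and 1427 under vehicle and 1268, 1394 and 1644 under memantine in the WT mice. In the KO mice the values were 1715, 1889 and 2148 under vehicle and 2861, 2315 and 1968 under memantine. For both genes every KO mouse exceeded every WT mouse, and the highest KO mouse was replicate 3 under vehicle and replicate 1 under memantine. The log2 differences were 0.62 ± 0.096 for Rbm3 (adjusted p = 0.00485) and 0.61 ± 0.095 for Cirbp (adjusted p = 0.00492).

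The 12 fallers with the smallest p differed by between -0.35 (Lynx1) and -1.53 (Abhd12b). Inf2, a formin that assembles actin filaments, went from 5013 to 5910 (median 5430) in WT mice to 3498 to 4654 (median 3979) in KO mice (log2 difference -0.42 ± 0.052, adjusted p = 0.00132). Hs3st2, a neuronal heparan sulfate sulfotransferase (-0.57 ± 0.069), Rgcc, a cell cycle regulator that responds to complement (-0.77 ± 0.095), Rmnd1, a mitochondrial translation protein (-0.54 ± 0.068), and Lynx1, a GPI-anchored brake on nicotinic receptors (-0.35 ± 0.048), fell without overlap. So did Hspg2, the basement membrane proteoglycan perlecan (-0.77 ± 0.11), and Igfbp6, a binding protein of insulin-like growth factors (-0.55 ± 0.079). Rasgrp3, an exchange factor that activates Ras and Rap, fell by 0.62 ± 0.082, and Mapk11, the p38 beta kinase, by 0.61 ± 0.082. The largest fitted differences among called genes with a mean of at least 50 were those of Gm45062 (3.40 ± 0.82), Npcd (2.11 ± 0.40) and Wnt10b upwards and of Bc1, Abhd12b (-1.53 ± 0.22) and Ighm, the immunoglobulin mu heavy chain (-1.45 ± 0.23), downwards. Gm45062 was listed at 0 in 2 WT mice, WT-Mem replicates 1 and 3, and its ranges overlapped (up to 88.0 in WT and from 48.1 in KO mice), so the size of its difference depends on the pseudocount.

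**Figure D2:**
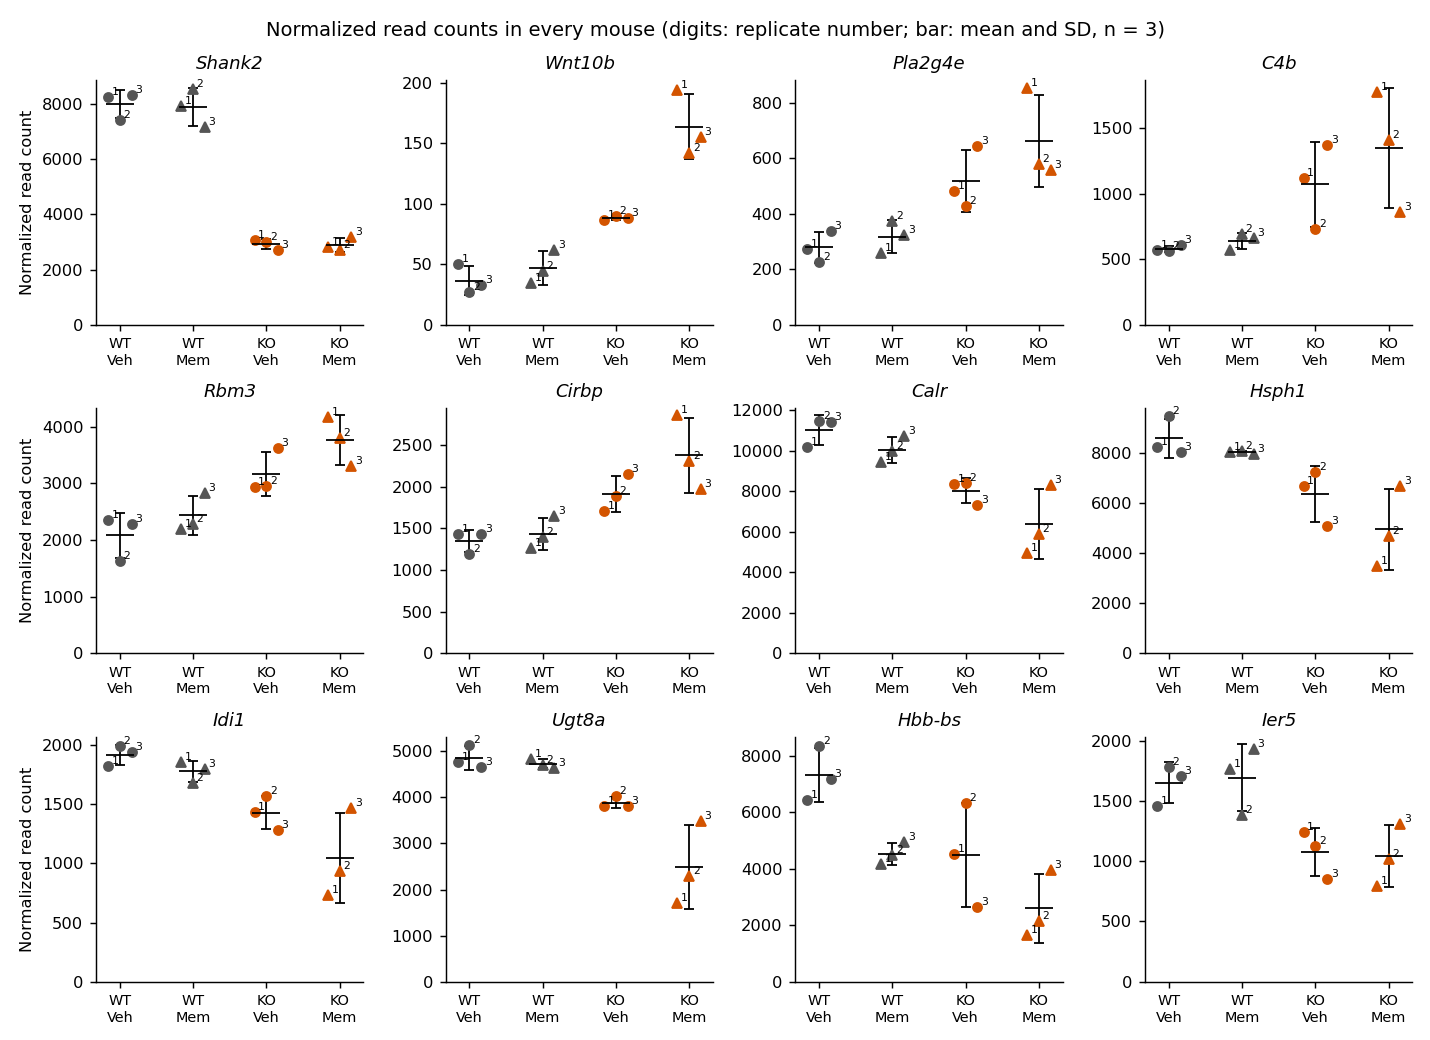
Normalized read counts (y axes, from 0) of 12 genes in every mouse, by group (x axes), with WT mice in grey, KO mice in orange, vehicle as circles, memantine as triangles, the replicate number beside each point and bars for the mean and SD of 3 mice. Shank2 separates the genotypes with little spread among KO mice, whereas Calr, Hsph1, Idi1, Ugt8a, Rbm3 and Cirbp spread along an order in which KO-Mem replicate 1 lies farthest from the WT mice.

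Genes next to Shank2 were counted apart. Within 20 Mb of it on chromosome 7, 31 of 283 genes tested (11%) were called, 12 higher and 19 lower, close to the 10.8% over all genes. Within 1 Mb, 6 of 27 were called. Gm26793, annotated as an antisense transcript at 144894560 to 144897461, was 1.02 to 3.89 in WT mice and 43.2 to 58.7 in KO mice, a log2 difference of 3.82 ± 0.26 (adjusted p = 1.49e-06) that depends on the pseudocount because the WT values are about that of a few reads. Bc1, a short noncoding RNA that represses translation in dendrites (144914470 to 144914637), fell from 259 to 641 (median 472) to 133 to 205 (median 137), a difference of -1.53 ± 0.18 (adjusted p = 9.54e-04). Ccnd1, cyclin D1 (144929931 to 144939925), fell from 1237 to 1619 (median 1319) to 618 to 931 (median 752), a difference of -0.84 ± 0.085 (adjusted p = 3.24e-04). Tpcn2, a lysosomal cation channel, fell by 0.64 ± 0.093, and Adam8, a metalloprotease farther away, by 1.11 ± 0.19, whereas Deaf1, a transcription factor, rose by 0.47 ± 0.083. The other genes called within 1 Mb, Mrgprf (0.84) and Dhcr7, the last enzyme of cholesterol synthesis (-0.31), were singled out after their values were seen. Reads from Gm26793 and from genes on the opposite strand cannot be told apart, since the strand setting of the quantification is not given in the sources used here.

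Many genes of the ER protein-folding machinery fell in KO mice. Of 37 tested chaperones and genes of the unfolded protein response, the program that raises ER folding capacity, 16 were called lower and 0 higher (43.2% called, against 10.8% of all genes), and 27 of the 37 differences were below 0. The median difference was -0.18, where that of all genes tested was 0.0035. Calr, the lectin chaperone and calcium buffer calreticulin (chromosome 8, 84841850 to 84846934), stood at 10190, 11450 and 11420 under vehicle and 9454, 9962 and 10710 under memantine in the WT mice. In the KO mice the values were 8359, 8402 and 7332 under vehicle and 4970, 5864 and 8292 under memantine. Every KO mouse lay below every WT mouse, and the KO-Mem mice covered the widest range. The log2 difference of Calr was -0.57 ± 0.097 (adjusted p = 0.00675). Hyou1, a large ER co-chaperone (-0.28 ± 0.056), the disulfide isomerase Pdia3 (-0.27 ± 0.058) and its relative Pdia6 (-0.48 ± 0.10) also fell, Pdia6 with overlapping ranges.

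Of the members named after their values were seen, Hspa5, the master ER chaperone BiP, went from 7584 to 10124 (median 9622) in WT mice to 4925 to 8817 (median 6630) in KO mice (-0.47 ± 0.13, adjusted p = 0.0317) with overlap, and KO-Veh replicate 2 and KO-Mem replicate 3 lay within the WT range. Xbp1, a transcription factor of the unfolded protein response, fell by 0.47 ± 0.10 without overlap. The mean log2 deviation of the 37 members from the WT mean was -0.29 in KO-Mem replicate 1, -0.26 in KO-Mem replicate 2 and -0.27 in KO-Veh replicate 3, but only -0.045 in KO-Mem replicate 3, where WT mice spanned -0.079 to 0.048. Accordingly, the number of members called fell from 16 to 8 without KO-Veh replicate 3, 9 without KO-Mem replicate 1, 9 without KO-Mem replicate 2 and 10 without WT-Mem replicate 3, and to 1 without KO-Mem replicates 1 and 2 together.

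The promoters of these genes are shown because many genes of the ER program share a bipartite element that responds to ER stress. The letters searched were CCAAT, any 9 bases and CCACG on either strand, in RefSeq promoter windows (GRCm38.p6) from 250 bases before to 50 bases after the start. The element was found in 37 of 27025 genes with a window (0.137%), in 9 of the 32 ER genes with a window, in 6 of the 13 of them called lower and in 3 of the 19 not called (Derl3, Dnajc3 and Syvn1). The stretches below are 80 bases long, read 5′ to 3′ on the strand of the gene, with the fixed letters of the element in capitals. They come from Calr (chr8:84847045-84847124, minus strand), Hspa5 (chr2:34771994-34772073, plus strand), Pdia6 (chr12:17266460-17266539, plus strand) and Creld2, an ER-resident secretory protein (chr15:88819489-88819568, plus strand).
Calr: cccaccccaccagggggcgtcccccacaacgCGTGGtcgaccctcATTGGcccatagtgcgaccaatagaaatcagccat
Hspa5: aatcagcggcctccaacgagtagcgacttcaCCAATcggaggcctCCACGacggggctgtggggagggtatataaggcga
Pdia6: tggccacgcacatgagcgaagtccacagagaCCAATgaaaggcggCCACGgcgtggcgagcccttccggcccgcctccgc
Creld2: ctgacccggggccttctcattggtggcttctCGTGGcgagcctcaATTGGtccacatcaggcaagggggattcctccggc
Calr and Creld2 carry the element on the opposite strand to Hspa5 and Pdia6, so that its letters appear as CGTGG and ATTGG. A match of letters is a description of these windows and shows neither binding nor a cause.

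Many heat shock proteins fell as well. The list was drawn up for cytosolic members but also held mitochondrial Hspe1. Of 30 tested members, 16 were called lower and 0 higher (53.3% called, against 10.8% of all genes), and the median difference was -0.17. Cryab, the small heat shock protein alpha B-crystallin found mainly in oligodendrocytes and astrocytes, fell from 1701 to 2644 (median 2128) to 924 to 1649 (median 1364), a difference of -0.72 ± 0.11 (adjusted p = 0.00396). Hspa8, the constitutive Hsc70 and one of the most abundant transcripts of the list, fell from 57268 to 66197 (median 60604) to 47614 to 56034 (median 51424), a difference of -0.24 ± 0.044 (adjusted p = 0.00815). The Hsp90 co-chaperones Fkbp4 (-0.30 ± 0.058) and Stip1 (-0.30 ± 0.062) fell as well, all 4 without overlap. Hsph1, the nucleotide exchange factor Hsp110, was named after its values were seen and fell by 0.60 ± 0.13, from 7956 to 9468 in WT mice to 3486 to 7232 in KO mice. The mean log2 deviation of the list was below that of every WT mouse (at least -0.068) in every KO mouse (at most -0.10). The number called was 9 without WT-Veh replicate 2, 9 without KO-Veh replicate 3, 8 without KO-Mem replicate 1 and 8 without KO-Mem replicate 2, and 1 without KO-Mem replicates 1 and 2 together. The heat shock element, searched as GAA, TTC and GAA or TTC, GAA and TTC with 2 bases of any kind between neighbours, on both strands, was found in the windows of 179 of 27025 genes (0.662%) and of 5 of the 25 members with a window. These were 3 of the 13 members called lower and 2 of the 12 not called (Dnajb6 and Hspd1). Hspe1, the mitochondrial co-chaperonin with one of these matches, is shown with the fixed letters in capitals, overlapping matches included (chr1:55088027-55088106, plus strand). Its window overlaps that of Hspd1 on the other strand, and its values were looked up after the match was seen.
Hspe1: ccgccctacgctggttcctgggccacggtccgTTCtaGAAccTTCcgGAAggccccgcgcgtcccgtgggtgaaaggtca
Hspe1 was 896 to 1151 (median 1050) in WT mice and 766 to 916 (median 889) in KO mice, a log2 difference of -0.27 ± 0.062 (adjusted p = 0.0188).

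Most genes of cholesterol and fatty acid synthesis were called. Of 35 tested, 19 were called lower and 2 higher (60% called, against 10.8% of all genes). In this list 32 differences lay below 0, and the median difference was -0.23. Idi1, which isomerizes the isoprenoid building block, was 1681 to 1991 (median 1841) in WT mice and 736 to 1568 (median 1358) in KO mice, a difference of -0.63 ± 0.13 (adjusted p = 0.0118) without overlap. Nsdhl, a sterol dehydrogenase, fell from 611 to 780 (median 706) to 385 to 594 (median 523), a difference of -0.49 ± 0.085 (adjusted p = 0.00745). The stearoyl-CoA desaturase Scd1 (-0.45 ± 0.075) and the delta-5 desaturase Fads1 (-0.33 ± 0.067) fell with overlapping ranges. Srebf1, the transcription factor of fatty acid synthesis, was named after its values were seen and rose by 0.49 ± 0.11. KO-Mem replicates 1 and 2 stood apart in this list, with mean log2 deviations of -0.51 and -0.40, where the other 4 KO mice lay between -0.17 and -0.041. The number called lower was 7 without KO-Veh replicate 3, 11 without KO-Mem replicate 1, 7 without KO-Mem replicate 2, 8, 11 and 9 without WT-Mem replicates 1, 2 and 3, and 11 without WT-Veh replicate 2. Without KO-Mem replicates 1 and 2 together it was 2 and the median difference was -0.11.

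Most markers of oligodendrocytes, the myelin-forming glia and heavy users of cholesterol, fell. Of 20 markers tested, 13 were called lower and 0 higher (65% called, against 10.8% of all genes). Of the 20 differences, 19 lay below 0, and the median difference was -0.32. Their summed level was 356211 to 477009 in WT mice and 283030 to 368991 in KO mice, so the genotypes overlapped slightly. Mag, the myelin-associated glycoprotein, was 11014 to 14094 (median 12667) in WT mice and 8762 to 11624 (median 10196) in KO mice, a difference of -0.31 ± 0.051 (adjusted p = 0.0064). Cnp, a myelin phosphodiesterase (-0.39 ± 0.068), and Mobp, a basic protein of myelin (-0.28 ± 0.052), fell, and the ranges of all 3 genes overlapped. Ugt8a, the enzyme of galactolipid synthesis, named after its values were seen, fell by 0.65 ± 0.14 without overlap, and Mbp, myelin basic protein, also looked up after the fit, differed by -0.23 ± 0.072 (adjusted p = 0.0532) and was not called. The list gave 9 to 14 calls when a single mouse was left out and 3 without KO-Mem replicates 1 and 2, with a median difference of -0.25. In bulk tissue, fewer cells of a type and less RNA per cell cannot be told apart.

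Of 12 markers of oligodendrocyte precursors, 4 were called lower and 1 higher (41.7%, against 10.8% of all genes), with a median difference of -0.23. Bcas1, a marker of early myelinating cells (-0.44 ± 0.071), Olig1, a transcription factor of the lineage (-0.28 ± 0.045), and Gpr17, a receptor of differentiating precursors (-0.43 ± 0.10), were lower in all 6 KO than in all 6 WT mice. The higher member was Vcan, the proteoglycan versican (0.19 ± 0.051), which lost its call without any of 6 single mice.

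**Figure D3:**
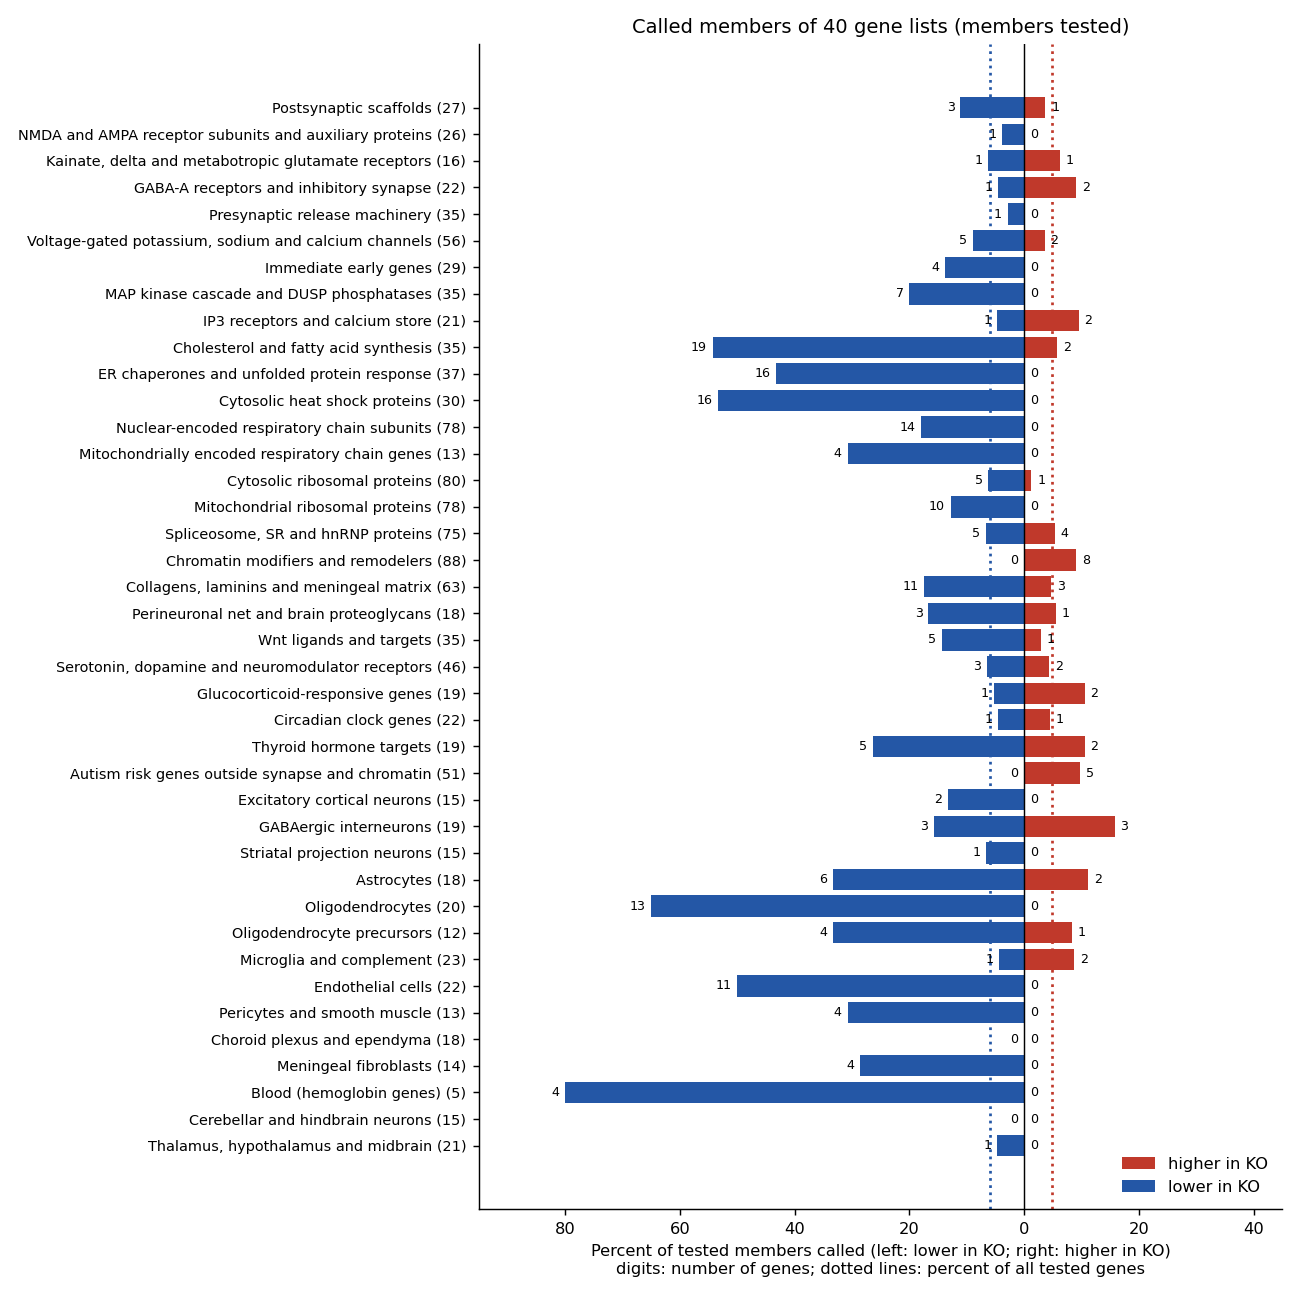
Percent of tested members called lower (blue, left) and higher (red, right) in KO mice for 40 gene lists, with the number of genes beside each bar, the number of members tested in brackets and dotted lines at the share of all genes called lower (5.91%) and higher (4.89%). Hemoglobin, oligodendrocyte, cholesterol, heat shock, endothelial and ER lists reach furthest to the left, and NMDA and AMPA receptors and the presynaptic list stay under both lines.

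Vascular and blood markers were called in 1 direction. Of 22 endothelial markers, 11 were called lower and 0 higher (50%, against 10.8% of all genes), with a median difference of -0.22. Among them were Emcn, an endothelial sialomucin (-0.65 ± 0.13, no overlap), and Tie1, a receptor of the angiopoietin system (-0.42 ± 0.087). The summed endothelial level was 21512 to 23869 in WT mice and 19764 to 20792 in KO mice, without overlap. Leaving out a single mouse lowered the 11 calls to between 3 (KO-Veh replicate 3, KO-Mem replicate 1 or WT-Veh replicate 2) and 11, and without KO-Mem replicates 1 and 2 together 0 were called, with a median difference of -0.23. Of 13 pericyte and smooth muscle markers, all below 0, 4 were called lower (30.8%), led by Rgs5, a pericyte regulator of G protein signaling (-0.55 ± 0.10, no overlap). That count was 2 without any of 7 single mice (WT-Veh replicates 2 and 3, WT-Mem replicates 1 and 3, KO-Veh replicate 3 and KO-Mem replicates 1 and 2).

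Hemoglobin transcripts, carried by blood cells in the tissue, were the most variable. Of the 5 genes of the erythroid list 4 were called lower (80%, against 10.8% of all genes), with a median difference of -0.78. Hbb-bs stood at 6426, 8331 and 7169 under vehicle and 4163, 4483 and 4942 under memantine in the WT mice. In the KO mice the values were 4534, 6325 and 2639 under vehicle and 1654, 2164 and 3970 under memantine. The genotypes overlapped, and KO-Veh replicate 3 and KO-Mem replicates 1 and 2 were lowest. The difference of Hbb-bs was -0.84 ± 0.20 (adjusted p = 0.020). These are the same 3 KO mice in which the ER and heat shock lists were lowest, and the part of blood content in those results was not tested. Between 1 and 2 hemoglobin genes stayed called without WT-Veh replicate 2, any KO mouse of those 3, WT-Mem replicate 1 or WT-Mem replicate 3.

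Astrocyte genes moved in both directions. Of 18 markers, 2 were called higher and 6 lower (44.4%), with 1 higher without KO-Mem replicate 1. Etnppl rose from 597 to 941 (median 900) in WT mice to 1172 to 1811 (median 1378) in KO mice, whereas Aqp4, the water channel of perivascular endfeet, fell from 3462 to 4690 (median 3897) to 2036 to 3595 (median 2727), a difference of -0.56 ± 0.089 (adjusted p = 0.00516). Acsbg1, an acyl-CoA synthetase (-0.33 ± 0.053), and S100b, a calcium-binding protein (-0.37 ± 0.076), fell, as did Kcnj10 from the list of ion channels, the glial inward rectifier that clears potassium (-0.39 ± 0.068). Among 23 microglial and complement genes, C4b, a complement component made largely by glia, rose from 565 to 690 (median 588) to 728 to 1774 (median 1245), a difference of 0.93 ± 0.16 (adjusted p = 0.00705) without overlap. The microglial receptor P2ry12 (-0.51 ± 0.15, adjusted p = 0.0469) and the lysosomal protein Cd68 (0.35 ± 0.11, adjusted p = 0.0476) were called in opposite directions, and each lost its call without any of 9 single mice. Over the 23 genes, 2 were called higher and 1 lower (13%, against 10.8% of all genes). Most of them, 16 of 23, lay below 0, and the median difference was -0.21.

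**Figure D4:**
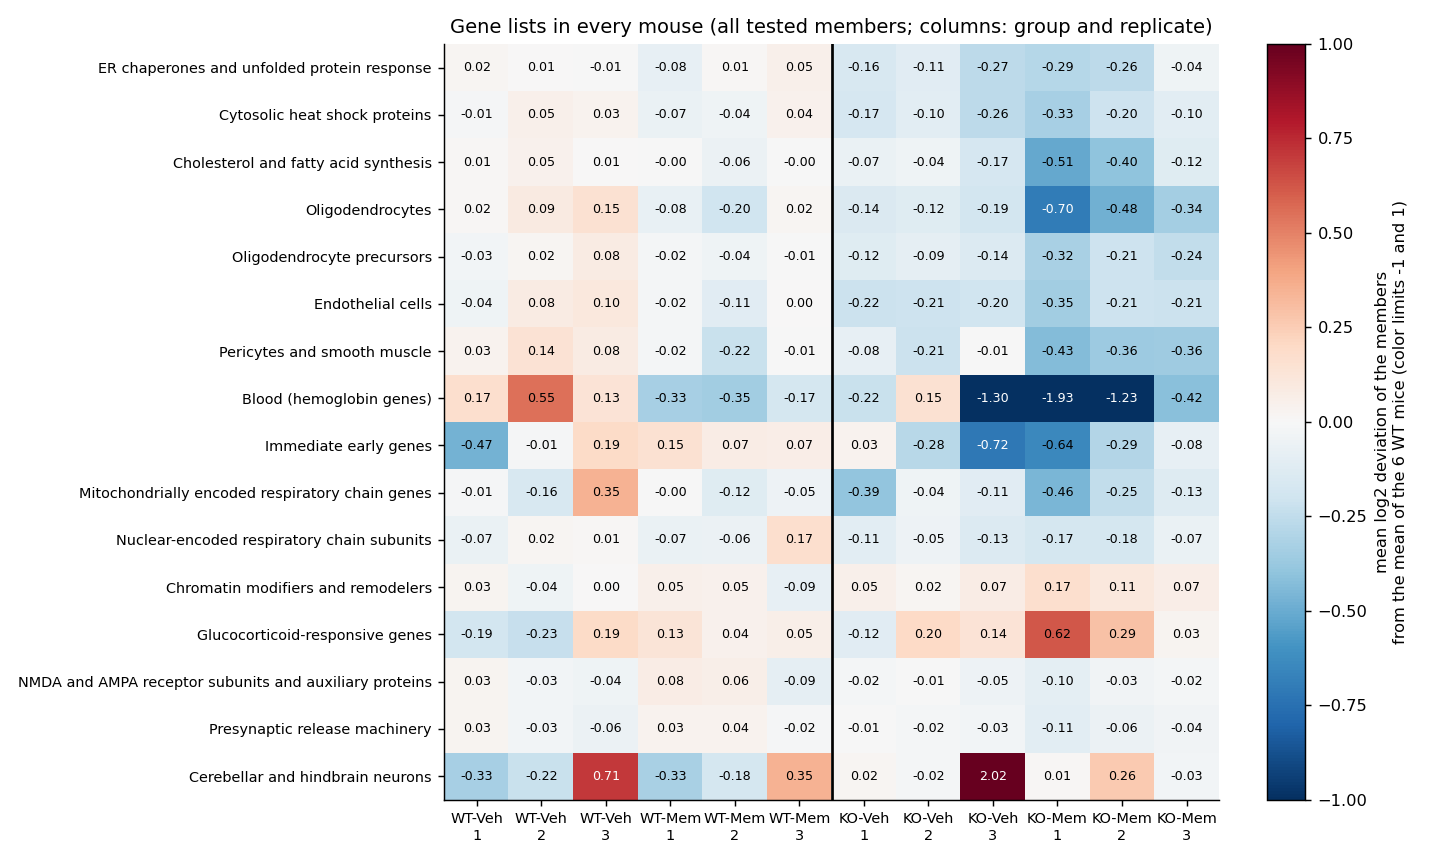
Mean log2 deviation of all tested members of 16 lists (rows) from the mean of the 6 WT mice in each of the 12 mice (columns; WT left and KO right of the line), printed in each cell and colored with limits at -1 and 1. ER, heat shock, cholesterol, oligodendrocyte and hemoglobin lists are lowest in KO-Mem replicate 1, and the cerebellar list reaches 2.02 in KO-Veh replicate 3.

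The glutamatergic synapse is where the Shank2 protein resides. Of 27 postsynaptic scaffold genes, 3 were called lower, including Shank2, and 1 higher (14.8%, against 10.8% of all genes), with a median difference of 0.023. Homer1, the partner that bridges Shank to metabotropic receptors, was 4507 to 5417 (median 5342) in WT mice and 2985 to 4734 (median 4139) in KO mice, a difference of -0.36 ± 0.094 (adjusted p = 0.0268) with overlap. Dlgap3, the SAPAP3 scaffold, fell by 0.12 ± 0.035 and Tnik, a postsynaptic kinase, rose by 0.29 ± 0.073. These calls rest on single mice: Homer1 lost its call without any of 5 mice, Dlgap3 without any of 9, and Tnik without KO-Veh replicate 3 or KO-Mem replicate 1. Dlg4, which encodes PSD-95 and was looked up after the fit, differed by -0.11 ± 0.044 (adjusted p = 0.103).

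Of 26 subunits and auxiliary proteins of NMDA and AMPA receptors, 1 was called (3.85%, against 10.8% of all genes). It was Grin2c, the NMDA subunit found in astrocytes and some neurons, which fell from 1640 to 1864 (median 1698) to 1219 to 1633 (median 1517), a difference of -0.23 ± 0.057 (adjusted p = 0.0225). Of well-known members looked up after the fit, Grin1, the obligatory NMDA subunit, differed by 0.082 ± 0.039 (adjusted p = 0.176), Grin2b by 0.16 ± 0.093 (adjusted p = 0.268) and the AMPA subunit Gria1 by 0.14 ± 0.047 (adjusted p = 0.0694). Of 16 kainate, delta and metabotropic receptors 2 were called (12.5%, near the 10.8% of all genes). Grik4, a kainate receptor subunit, rose by 0.31 ± 0.061 and Grm3, a glial and presynaptic metabotropic receptor, fell by 0.31 ± 0.089. Of 35 genes of the release machinery only Cplx1, complexin 1, was called (-0.20 ± 0.047). The medians of these lists lay between -0.031 and 0.041.

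Inhibitory synapse genes gave 2 higher and 1 lower call of 22 (13.6%, near the 10.8% of all genes). Gabrd, the delta subunit of tonic GABA-A receptors, fell from 1832 to 1976 (median 1960) to 1356 to 1698 (median 1530), a difference of -0.33 ± 0.052 (adjusted p = 0.00497) without overlap. Gad2, which makes GABA (0.19 ± 0.050), and Gabrg3, a gamma subunit (0.23 ± 0.069), had overlapping ranges. Gad2 lost its call without any of 5 single mice, its difference staying between 0.16 and 0.22, and Gabrg3 without any of 9. Of 19 interneuron markers, 3 were called higher and 3 lower (31.6%, against 10.8% of all genes). The higher ones were the neuropeptide Vip (0.32 ± 0.080), Gad2 and the transcription factor Lhx6 (0.28 ± 0.084), and the lower ones were Lamp5 (-0.30 ± 0.056), the neuropeptide Cck (-0.32 ± 0.065) and the calcium-binding protein Pvalb (-0.35 ± 0.098). Vip, Lamp5 and Cck did not overlap between genotypes, and Lhx6 and Pvalb were named after their values were seen. The 3 higher calls fell to 0 without KO-Veh replicate 3 or KO-Mem replicate 2 and to 1 without WT-Mem replicate 3, KO-Veh replicate 1 or KO-Mem replicate 1. Of 56 voltage-gated channel genes, 2 rose and 5 fell (12.5%, near the 10.8% of all genes, with 5 higher without WT-Veh replicate 1, KO-Veh replicate 2 or KO-Mem replicate 3), among them Scn4b (-0.26 ± 0.046) and Scn2b (-0.33 ± 0.063), auxiliary subunits of sodium channels, and Kcnc1, the fast Kv3.1 channel (-0.23 ± 0.046). Of 46 receptors for monoamines and peptides, 2 were called higher and 3 lower (10.9%, near the share of all genes). The higher ones were the serotonin receptors Htr2c (0.32 ± 0.059) and Htr3a (0.53 ± 0.11), and the lower ones Crhr1, a receptor of corticotropin-releasing hormone (-0.35 ± 0.077), the neurotensin receptor Ntsr2 (-0.30 ± 0.072) and the histamine receptor Hrh1 (-0.44 ± 0.13), which was named after its values were seen.

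Immediate early genes, induced by neuronal activity, gave 4 lower and 0 higher calls of 29 (13.8%, near the 10.8% of all genes). Of the 29 differences, 26 lay below 0, and the median difference was -0.33. Ier5 fell from 1387 to 1932 (median 1738) to 797 to 1312 (median 1071), a difference of -0.68 ± 0.12 (adjusted p = 0.00773) without overlap. Fosl2 (-0.48 ± 0.12) and the orphan receptor Nr4a2 (-0.26 ± 0.069) fell with overlap. Arc, the classical activity marker, also looked up after the fit, ranged from 2598 to 11896 in WT mice and from 1310 to 6213 in KO mice and was not called (-1.25 ± 0.40, adjusted p = 0.0578). The list depended on single mice in both directions, from 1 call without KO-Veh replicate 3, WT-Veh replicate 2 or WT-Mem replicate 1 and 2 without WT-Mem replicate 2 or KO-Mem replicate 1 or 2, to 9 without WT-Veh replicate 1, 10 without KO-Mem replicate 3 and 12 without KO-Veh replicate 1.

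Calls among respiratory chain genes were all lower. Of 78 nuclear-encoded subunits, 14 were called lower and 0 higher (17.9%; median difference -0.11), led by Cycs, cytochrome c (-0.28 ± 0.057), and Atp5d, a subunit of ATP synthase (-0.22 ± 0.050). Of the 13 mitochondrially encoded genes, 4 were called lower (30.8%), from mt-Nd4 (-0.19 ± 0.042) to mt-Atp6 (-0.71 ± 0.18). Mitochondrial ribosomal proteins gave 10 lower and 0 higher calls of 78 (12.8%, against 10.8% of all genes called and 5.91% called lower). Cytosolic ribosomal proteins gave 5 lower and 1 higher of 80, which is 7.5% and under the 10.8% of all genes. Single mice moved these counts both ways. Nuclear subunits gave 4 calls without KO-Veh replicate 3 and 22 without WT-Veh replicate 1, lower cytosolic ribosomal proteins 0 and 8 without the same mice, and mitochondrial ribosomal proteins 3 without KO-Veh replicate 3 and 12 without KO-Veh replicate 2 or KO-Mem replicate 3. The mitochondrially encoded genes gave 2 calls without WT-Mem replicate 1 or 3 or KO-Mem replicate 1 or 2. Without KO-Veh and WT-Veh replicates 3 together, nuclear subunits and mitochondrially encoded genes gave 0 calls and mitochondrial ribosomal proteins 1. Of 88 chromatin genes, 8 were called higher and 0 lower (9.09%, against 10.8% of all genes called and 4.89% called higher). Their median difference was 0.096, and 0.060 without KO-Mem replicates 1 and 2 together. The calls were led by Kmt2e (0.30 ± 0.064), the histone methyltransferase Ehmt2 (0.28 ± 0.070), the histone acetyltransferase Kat6b (0.33 ± 0.085) and Tet2, which oxidizes methylcytosine (0.41 ± 0.10). The count was 1 without KO-Veh replicate 3, 16 without KO-Mem replicate 3 and 0 without KO-Veh and WT-Veh replicates 3 together. Respiratory and ribosomal genes are short and chromatin genes long, and the effect varied with exon length, from a median of -0.034 in genes of up to 2483 bases (3.04% called higher, 7.32% lower) to 0.038 in genes of 6376 bases or more (7.03% higher, 4.38% lower). By mouse, the median deviation of the shortest genes from the WT mean was -0.045 to -0.015 in KO mice. In WT mice it was -0.050 to 0.075, highest in WT-Mem replicate 3, so the genotypes overlapped. Mean deviations of the nuclear respiratory and cytosolic ribosomal lists overlapped as well, and WT-Mem replicate 3 was highest in both (0.17 and 0.16). The part of length in these results was not tested.

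Extracellular matrix genes gave 11 lower and 3 higher calls of 63 (22.2%, against 10.8% of all genes), with a median difference of -0.16. Without single mice the lower calls ranged from 8 to 15 and the higher calls from 1 to 4. Without KO-Veh and WT-Veh replicates 3 together, 7 lower and 2 higher calls remained. Without KO-Mem replicates 1 and 2 together the median difference was -0.12, which does not say how many calls remained. Their summed level did not fall, with a median of 64324 in WT and 66105 in KO mice. Besides Hspg2, the lower calls included Igfbp2, a secreted binding protein (-0.80 ± 0.13), the collagen Col9a3 (-0.48 ± 0.087) and fibronectin, Fn1 (-0.28 ± 0.053), all without overlap. In perineuronal nets, the coats of mature inhibitory neurons, Hapln4, a link protein, fell by 0.39 ± 0.060. Among glucocorticoid-responsive genes, 3 of 19 were called (15.8%, against 10.8% of all genes). Fkbp5, a co-chaperone of the receptor, rose by 0.65 ± 0.12 and Hif3a by 1.34 ± 0.34. Both were highest in KO-Mem replicate 1 (3313 and 1295) and had overlapping ranges. Pdk4 fell by 0.28 ± 0.083, a call lost without any of 10 single mice. Of 19 thyroid hormone targets, 5 fell, among them Sema7a, a membrane-bound semaphorin (-0.46 ± 0.067), and Nrgn, neurogranin (-0.39 ± 0.072), and 2 rose, Cirbp and the receptor Thra (0.33 ± 0.059), which is 36.8% called. The 5 lower calls fell to 2 without WT-Mem replicate 1, KO-Veh replicate 3 or KO-Mem replicate 1 or 2 and to 3 without WT-Veh replicate 2.

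Whether the genotype effect depended on treatment was tested with an interaction term. No gene was called (smallest adjusted p = 0.947 by limma), and 840 genes had an unadjusted p under 0.05, of which 92 were among the 1907. With 3 mice on each side the within-treatment fits called few genes: 5 (0.0283%) in vehicle mice (2551 at an unadjusted p under 0.05), which were Shank2, Gm26793, Gm14820, Itpr3 and Gm43118, and 5 (0.0283%) in memantine mice (3662 at an unadjusted p under 0.05), which were Shank2, Gm26793, Ccnd1, Npcd and Zxda. Gm43118 and Zxda were not called in the pooled fit. As contrasts of the 12-mouse fit, 2 genes were called in vehicle mice and 636 in memantine mice, and this gap is not a test of a difference between treatments. All 1907 called genes had the same sign in both treatments, against 69.8% of all genes, which a call on the pooled effect favors by construction. The median difference of the genes called higher was 0.27 in vehicle and 0.38 in memantine mice, that of the genes called lower was -0.28 and -0.37, and 73.1% of the called genes differed more in memantine mice. KO-Mem replicates 1 and 2, the most distant KO mice, are in that group.

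**Figure D5:**
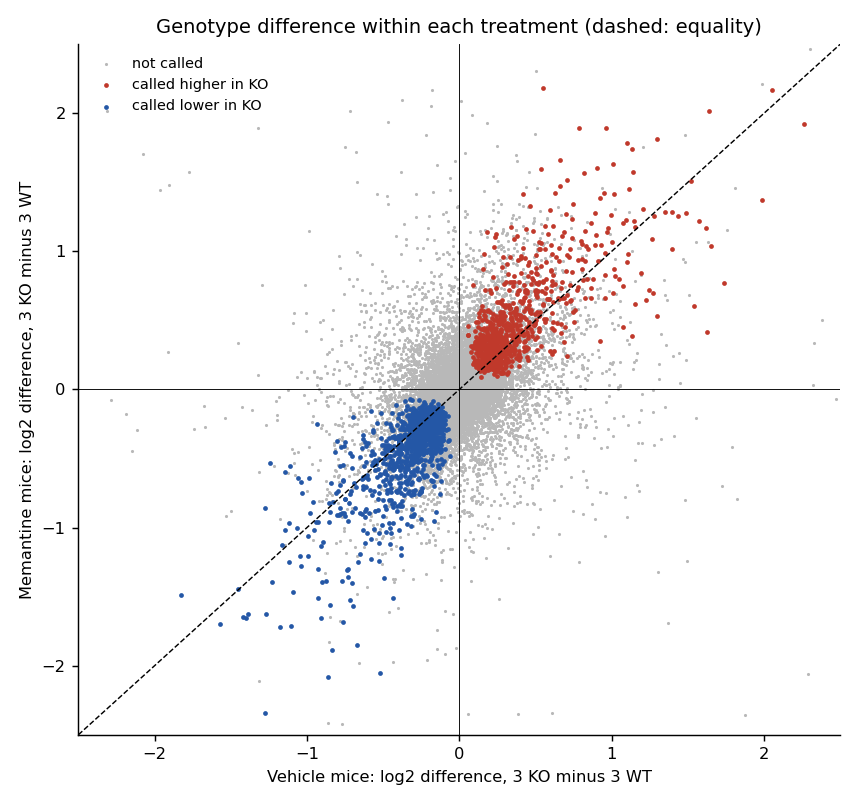
Log2 difference between 3 KO and 3 WT mice under vehicle (x axis) and under memantine (y axis) for all genes tested, with genes called higher (red) or lower (blue) in the pooled fit and the dashed line of equality. Called genes fill the quadrants of equal sign and lean towards the memantine axis. 46 genes, 7 of them called, lie beyond the limits of 2.5.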

How the data were processed

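Poly-A RNA of 12 mice was measured. The authors quantified paired-end reads with Salmon 1.1.0 (quasi-mapping, GC bias correction) on GRCm38 and summed transcripts to genes with tximport. The deposited signal values are gene-level estimates that the authors divided by DESeq2 normalization factors, neither whole nor log-transformed. Their gene filter is not given in the sources used here. Symbols and positions came from GENCODE M21 (19295 of 19312 genes matched). Log2(value + 1) was fitted with limma 3.58.1 (R 4.3.3; lmFit on treatment and genotype, eBayes with trend) for genes with a mean of at least 10, with Benjamini-Hochberg adjustment. The fit was tested on simulated data. The 12 called genes with the smallest p per direction (without predicted genes and the 20 Mb around Shank2), the 6 nearest by p within that flank, up to 4 called members of each of 40 lists (26 functional, 14 cell types; 2 where none was called) and the 3 largest and smallest differences were named by rule. The members and lists were chosen with earlier results of these data known. Groups and numbers came from the labels, which do not say whether mice were littermates. Relative depth was estimated from the spacing of low values, of which 34.4% to 72.2% lay within 0.05 reads of a whole read; WT-Veh replicate 3 gave no estimate. A single read limits the precision of values near 1. Same-numbered mice did not deviate together. Pseudocounts, filters, covariates, weights, scaling and left-out mice were varied. Some items are not reported here.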

Additional observations from a re-analysis of the deposited data

Results flagged for a closer look

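In 17 of 300 groups of 6 mice (150 named genes in KO and in WT mice), the highest or lowest mouse stood apart from the rest by more than Dixon's 95% limit for the gap divided by the range on the log2 scale; chance flags about 1 group in 20. WT-Veh replicate 2 was the mouse apart for Ccnd1 (gap 0.664; 1619 against 1237 to 1354), Igfbp6 (0.682), Hnrnpc (0.699) and Mrpl36 (0.689), where it was highest, and for Etnppl (0.702; 597.3 against 822 to 941.4), where it was lowest. WT-Veh replicate 3 was lowest for Htr2c (0.681) and highest for Cycs (0.752) and Cplx1 (0.685), WT-Mem replicate 1 was lowest for Pdia6 (0.734) and WT-Veh replicate 1 lowest for Fosl2 (0.641). KO-Mem replicate 1 was lowest for Nkd1 (0.675) and Mrps21 (0.804; 287.7 against 434.8 to 480.9) and highest for Tet2 (0.652) and Tnik (0.649). KO-Veh replicate 3, the mouse with cerebellar RNA, was lowest for Lamp5 (0.687) and Dlgap3 (0.861; 9678 against 10450 to 10580) and highest for En2 (0.796; 179.7 against 52.15 to 67.22), a gene of the midbrain and hindbrain that was not called.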

How the results depend on the processing

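The pooled count of 1907 genes was within 1.5 times under other pseudocounts, filters, covariates, weights and scalings (1468 to 2310); it was 704 to 2682 without single mice, 428 without KO-Veh and WT-Veh replicates 3, 102 without KO-Mem replicates 1 and 2 (both chosen after seeing the data), 5 in vehicle mice only and 5 in memantine mice only. The share called higher was 45.3%, 42% with TMM and 53.4% with median centring. The interaction gave 0 to 4 genes without single mice and 1 without KO-Mem replicates 1 and 2. The vehicle count of 5 was 3 with a pseudocount of 5, 2 with a mean of at least 50, 10 with robust eBayes, 11 with array weights, 3 without the Shank2 flank, 2 as a contrast and 2 to 53 without single mice. The memantine count of 5 was 10 with a pseudocount of 5, 8 with a mean of at least 50, 20 with robust eBayes, 4749 with array weights, 9 with median centring, 3 without the flank, 636 as a contrast and 2 to 1649 without single mice. The replicate number as a block gave 1825 pooled calls, 2 in vehicle and 3 in memantine mice. Deviations of same-numbered mice correlated between -0.175 and 0.0802, and 2 of the 12 mice correlated best with their own number. No pairing by number was seen, but a pairing of small effect would not show in these correlations. Of 3761 values of the 145 called named genes under 26 alternatives, 3318 stayed called and 0 reversed. A call on the same mice favors a constant sign by construction. The cause of lost calls was not tested.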

Other observations

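The calls were spread over the genome: on each of the 20 nuclear chromosomes other than Y, between 8.96% and 12.9% of the genes tested were called. Markers of the choroid plexus and ependyma gave 0 calls of 18, with Rarres2 (-0.51 ± 0.17, adjusted p = 0.062) and Kl (-0.24 ± 0.081, adjusted p = 0.0715) nearest to the threshold. Markers of excitatory cortical neurons gave 2 lower calls of 15 (Nrgn and Rorb; 13.3%, against 10.8% of all genes), striatal projection neurons 1 of 15 (Rasgrp2; 6.67%) and thalamus, hypothalamus and midbrain 1 of 21 (Rgs16; 4.76%). Of 51 autism risk genes outside the synapse and chromatin, 5 were called higher and 0 lower (9.8%, against 4.89% higher and 10.8% in all over all genes), with a count of 2 without any of 7 single mice and of 3 without WT-Veh replicate 2. They include Ankrd11 (0.19 ± 0.040) in every KO mouse above every WT mouse, Trip12 (0.22 ± 0.061) and Tsc1 (0.30 ± 0.085). Of 75 spliceosome and hnRNP genes 9 were called (12%, near the share of all genes), 4 higher, such as Sf3b1 (0.24 ± 0.057), and 5 lower, such as Tra2a (-0.54 ± 0.12) and Hnrnpc (-0.35 ± 0.059). Without single mice these counts ranged from 1 to 5 higher and from 2 to 8 lower.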
